A study of Mus musculus with 2 samples.

Results

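A set of 10 genes that define and serve midbrain dopamine neurons was read in the newborn mouse midbrain: Th, Ddc, Gch1, Slc18a2, Slc6a3, Aldh1a1, Nr4a2, Pitx3, Drd2 and Ret. They were chosen by symbol for their roles, with earlier results of these data known. All 10 were found among 43346 Ensembl genes in the deposited tables, 42462 of which carried a symbol. Total RNA came from midbrains of B6NCrl mice on postnatal day 0, with no treatment, allele or agent named in the labels. A single group of 2 animals was sampled, with 1 library each: pup 1 is replicate 1 and pup 3 is replicate 2. The labels give single midbrains, 1 donor identifier for both pups, no sex, RNA above 200 nt and 10 ng of input. The library of pup 1 held 36934868 expected counts and that of pup 3 held 40769103. With a single group there is no contrast between conditions, and no p-value is given.

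Dopamine is made from tyrosine by tyrosine hydroxylase, which needs the cofactor tetrahydrobiopterin, and then by aromatic amino acid decarboxylase. It is packed into vesicles by a monoamine transporter, released, and taken back up by the dopamine transporter. In the ventral midbrain this machinery marks the neurons of the substantia nigra and ventral tegmental area, which are maintained by transcription factors such as Nr4a2 and Pitx3. Several of the genes also work elsewhere: Ddc, Gch1 and Slc18a2 serve serotonin and noradrenaline neurons as well, and Th is used by hypothalamic neurons.

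All 10 genes reached 1 TPM in each pup (transcripts per 1000000, a level corrected for transcript length). Their median level was 14.8 TPM for pup 1 and 13.5 TPM for pup 3 (mean 14.1 ± 0.962, SD, n = 2). In whole tissue, a lower level from fewer cells of a type and from less RNA per cell cannot be told apart. By mean TPM the order ran Th, Ddc, Aldh1a1, Slc6a3, Slc18a2, Nr4a2, Drd2, Gch1, Ret and Pitx3. Neighbours were said to differ where the pups' ranges did not overlap and the deposited TPM credibility intervals were apart in each pup. Of 9 neighbouring pairs 1 met this, Nr4a2 over Drd2, which split the genes into 6 higher and 4 lower ones. Over all 45 pairs of these genes, 32 differed by the same rule. Th was highest and Drd2, Gch1, Ret and Pitx3 filled the last 4 places, in that order, in both pups, while the 5 genes between changed places. Highest over lowest was 14-fold in pup 1 and 9.61-fold in pup 3.

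**Figure D1:**
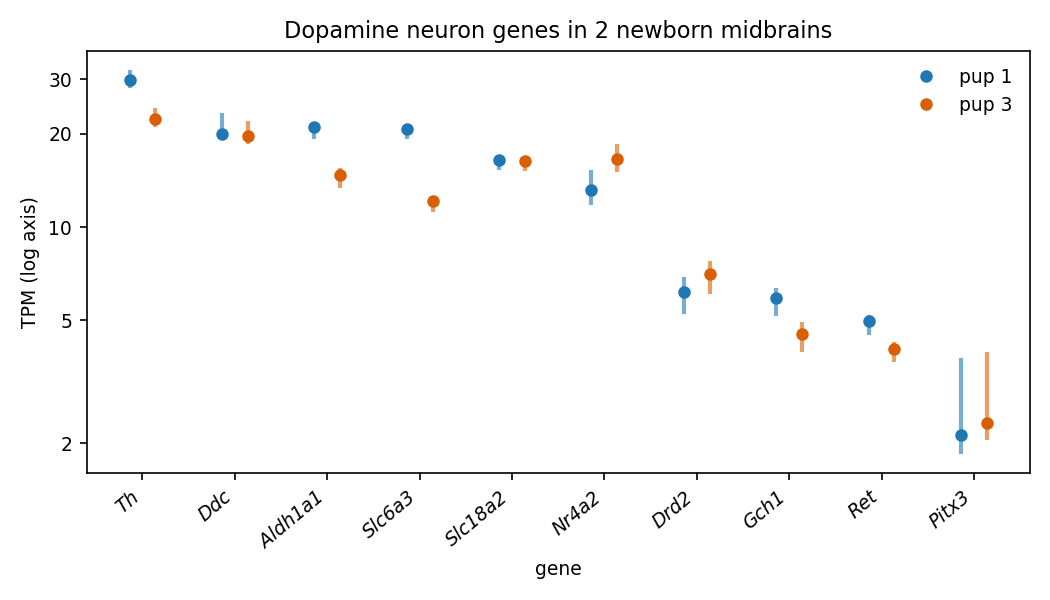
TPM on a log axis for the 10 genes in pup 1 and pup 3, ordered by mean. Points are the deposited TPM and bars the deposited credibility intervals; Th is highest (29.8 and 22.3 TPM), Pitx3 lowest (2.13 and 2.32 TPM), and the bars of Th, Aldh1a1, Slc6a3, Gch1 and Ret do not overlap between the pups.

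Th, whose enzyme sets the pace of dopamine synthesis (ENSMUSG00000000214.6, chr7:142892752-142931128, minus strand, mm10), was at 29.8 TPM in pup 1 on 1192 counts and at 22.3 TPM in pup 3 on 974 counts. Its mean of 26.0 ± 5.31 TPM (SD, n = 2) was above 75.1% of the 21474 protein-coding genes. The credibility intervals, 28.2 to 32.2 TPM in pup 1 and 21.0 to 24.3 TPM in pup 3, did not overlap. Ddc, the decarboxylase that turns L-DOPA into dopamine (ENSMUSG00000020182.12, chr11:11814101-11898144, minus strand), was at 20.1 and 19.7 TPM on 815 and 868 counts. The pups thus lay close together for Ddc (19.9 ± 0.269 TPM), and Th was above Ddc in each of them, with a log2 ratio of 0.57 in pup 1 and 0.18 in pup 3. The Ddc locus overlaps the antisense gene 1700042O10Rik, which had 0 and 2 counts.

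Gch1, which starts tetrahydrobiopterin synthesis (ENSMUSG00000037580.9, chr14:47153895-47189413, minus strand), was the lowest of the 3 synthesis genes, at 5.88 TPM in pup 1 and 4.51 TPM in pup 3 on 364 and 305 counts. Its intervals, 5.16 to 6.35 and 3.94 to 4.94 TPM, were apart. The other 6 genes of this pathway reached 1 TPM in each pup, and none had intervals apart between the pups. Pts, which acts on the product of the Gch1 enzyme, was at 67.9 and 64.8 TPM, so the log2 ratio of Gch1 over Pts was -3.66 ± 0.219. Qdpr, which regenerates the cofactor, was at 119 and 111 TPM, and Gchfr, the feedback regulator of the Gch1 enzyme, at 10.2 and 8.41 TPM. Gch1 was thus the lowest of the 7 genes of this pathway in both pups, and the pathway also serves cells that make no dopamine.

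The promoter of Th and that of Slc18a2 are shown because they alone, of 11 RefSeq promoter windows for 9 of the genes, hold the cyclic AMP response element TGACGTCA. RefSeq windows (build GRCm38.p6, the build of mm10) run from 250 bases before a start to 50 after. Ret had no window. The only window of Nr4a2 lay at its far upstream start, 57124003, whose transcripts held 6.3% of the gene's TPM. The Nr4a2 start at 57115038, with 69.0%, had no window and was not searched. Of all 32851 windows, 588 (1.79%) hold these letters on either strand. The match is in capitals, 5′ to 3′ on the gene's strand, and begins 45 bases before the Th start and 4 bases before the Slc18a2 start. The stretches are chr7:142899996-142900095 (minus strand) and chr19:59260782-59260881 (plus strand).
Th: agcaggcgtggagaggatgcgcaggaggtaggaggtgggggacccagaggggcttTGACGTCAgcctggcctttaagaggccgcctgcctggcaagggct
Slc18a2: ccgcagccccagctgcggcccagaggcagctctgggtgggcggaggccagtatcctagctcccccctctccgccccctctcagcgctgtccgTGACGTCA
The monomer response element of the NR4A receptors, AAAGGTCA, was in 495 windows (1.51%) and among these genes in 1, at an upstream start of Ddc. The bicoid-type motif TAATCC was in 2320 windows (7.06%) and in none of the 11. Such a match is a description of the letters, not of binding.

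Slc18a2, the vesicular transporter that loads dopamine (ENSMUSG00000025094.7, chr19:59260896-59296012, plus strand), was at 16.5 TPM in pup 1 and 16.4 TPM in pup 3 on 1414 and 1533 counts, the closest agreement of the 10 genes (16.4 ± 0.0919 TPM). Slc6a3, the dopamine transporter of the plasma membrane (ENSMUSG00000021609.6, chr13:73536747-73578672, plus strand), was at 20.7 TPM in pup 1 on 1605 counts and at 12.2 TPM in pup 3 on 1033 counts. It had the widest gap: the intervals, 19.2 to 21.2 and 11.2 to 12.6 TPM, did not overlap, and pup 1 was 1.70-fold higher. Which of these transporters was higher therefore differed by pup, with a log2 ratio of Slc18a2 over Slc6a3 of -0.32 in pup 1 and 0.42 in pup 3.

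The related transporters Slc6a2, Slc18a1 and Slc6a4, of other monoamine cells, were lower. Slc29a4, also on the monoamine transport list, was higher than Slc6a3 and Slc18a2, at 57.45 TPM in pup 1 and 57.54 TPM in pup 3. Slc6a2, the noradrenaline transporter, was at 0.20 and 0.12 TPM on 28 and 18 counts, below Slc6a3 by a log2 ratio of 5.96 ± 0.220. Slc18a1, the vesicular transporter of endocrine cells, was at 0.64 and 0.60 TPM on 18 and 8 counts, and Slc18a2 exceeded it by 4.52 ± 0.0487. That ratio rests on a deposited effective length for Slc18a1 of 1207 bases in pup 1 and 524 in pup 3, and counts not divided by length gave 6.93. Slc6a4, the serotonin transporter, was at 9.27 and 8.44 TPM, and the log2 ratio of Slc6a3 over Slc6a4 was 1.15 in pup 1 and 0.52 in pup 3. A pair was called apart where both pups had the same sign, the mean was above 1 in size and above 3 SD, and the intervals did not overlap in either pup. By that rule Slc6a3 and Slc6a4 were not apart. Of 24 pairs of related genes, 16 were apart, and in 12 of these the first gene of the pair was higher.

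Aldh1a1, a retinaldehyde dehydrogenase found in ventral tier dopamine neurons and able to oxidize the aldehyde made from dopamine (ENSMUSG00000053279.6, chr19:20492715-20643465, plus strand), was at 21.0 TPM in pup 1 and 14.8 TPM in pup 3. Its counts were 948 and 728.11, the only member with a count that was not whole (tolerance 0.005), so some reads were shared, and its near-copy Aldh1a7 was at 0.84 and 1.02 TPM. The intervals, 19.2 to 21.8 and 13.4 to 15.5 TPM, did not overlap. Aldh1a2, a family member of meninges and other tissues, was at 24.3 and 23.2 TPM and was not apart from Aldh1a1 (log2 ratio -0.43 ± 0.312). Aldh1a3 was at 0.50 and 0.93 TPM, and Aldh1a1 exceeded it by 5.13 in pup 1 and 3.85 in pup 3 on the log2 scale.

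Of the genes for breakdown and conversion of dopamine, Maoa, a monoamine oxidase, was at 21.9 and 22.8 TPM. Maob, the form of serotonin neurons and astrocytes, was at 6.36 and 6.01 TPM, below Maoa by a log2 ratio of 1.84 ± 0.099. Dbh, which turns dopamine into noradrenaline, was at 0.39 and 0.18 TPM on 22 and 11 counts, and Th exceeded it by 6.13 ± 0.276. Of the 5 genes on this list besides Aldh1a1, 4 reached 1 TPM in each pup and none was past 1 between the pups.

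**Figure D2:**
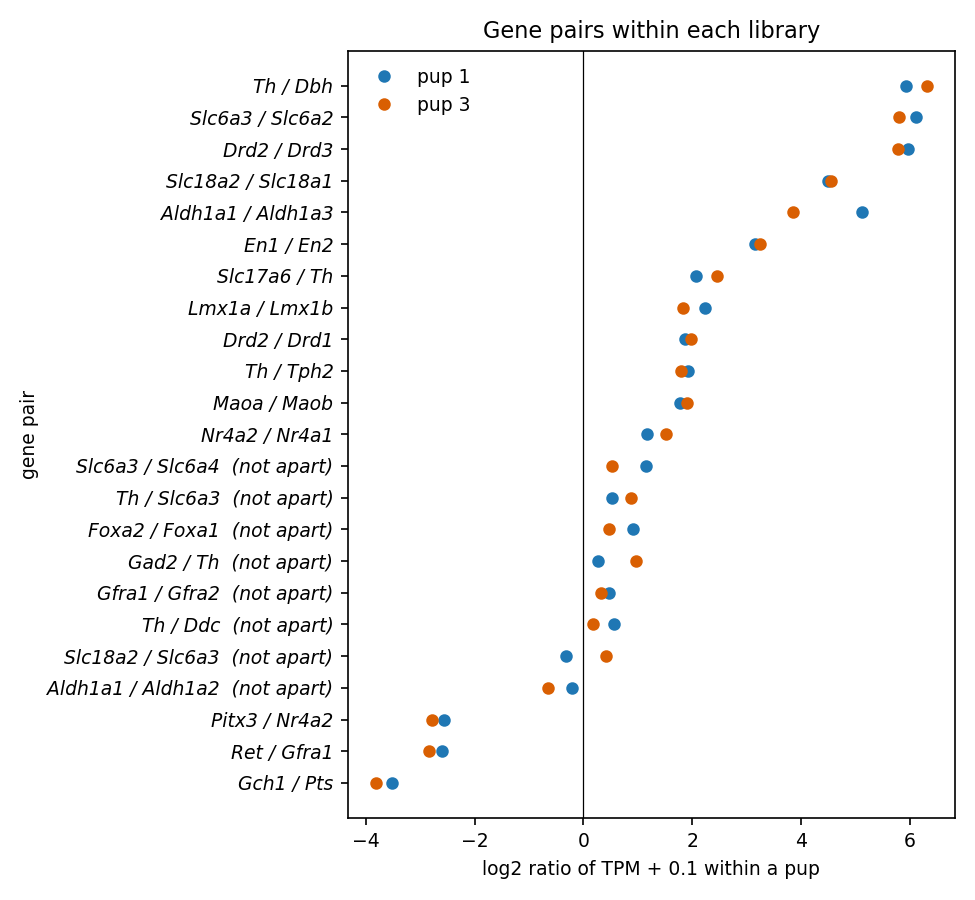
Log2 ratio of TPM + 0.1 within each pup for 23 of the 24 pairs of related genes, ordered by mean, with pairs that were not apart named so on the axis. Th over Dbh (6.13) and Slc6a3 over Slc6a2 (5.96) are the highest and Gch1 over Pts (-3.66) the lowest; the ratio of Drd2 over Drd3 depends on the added 0.1, since Drd3 had 0 and 1 counts.

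Nr4a2 (Nurr1), a nuclear receptor needed to form and keep dopamine neurons (ENSMUSG00000026826.9, chr2:57106830-57124003, minus strand), was at 13.1 TPM in pup 1 on 894 counts and at 16.5 TPM in pup 3 on 1263 counts. It was the member with the largest difference towards pup 3, although its intervals, 11.8 to 15.3 and 15.1 to 18.5 TPM, overlapped slightly. Pitx3, a homeodomain factor of nearly all midbrain dopamine neurons (ENSMUSG00000025229.11, chr19:46135685-46148326, minus strand), was at 2.13 and 2.32 TPM on 63 and 75 counts. Its intervals, 1.85 to 3.77 and 2.05 to 3.93 TPM, were the widest relative to its level. Pitx3 lay below Nr4a2 by a log2 ratio of -2.68 ± 0.150, and it was the only one of the 10 genes with a mean count below 100. Its locus shares 10 bases with Elovl3, which had 3 counts and 1 count.

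Nr4a1, a relative of Nr4a2 and an immediate early gene, was at 5.79 and 5.75 TPM, below Nr4a2 by 1.34 ± 0.240. Of 12 further transcription factors of the dopamine lineage, 9 reached 1 TPM in each pup and none had intervals apart. Otx2, a midbrain patterning factor, was at 50.3 and 51.2 TPM, En1, which supports dopamine neuron survival, at 8.60 and 7.82 TPM, Lmx1a, which specifies them, at 2.96 and 2.74 TPM, and its relative Lmx1b at 0.55 and 0.70 TPM. Pitx3 was thus below Otx2 and En1 and above Lmx1b in both pups. Its intervals overlapped those of Lmx1a in both, and by posterior means Pitx3 was at 2.73 and 2.92 TPM and Lmx1a at 2.94 and 2.73 TPM.

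Drd2, the dopamine receptor that also acts as the autoreceptor of dopamine neurons (ENSMUSG00000032259.7, chr9:49340627-49408177, plus strand), was at 6.17 and 7.04 TPM on 207 and 258 counts, with overlapping intervals (5.23 to 6.87 and 6.07 to 7.74 TPM). It was the highest of the 5 dopamine receptor genes in both pups. Drd1 was at 1.63 and 1.71 TPM, and Drd2 exceeded it by 1.92 ± 0.0864 on the log2 scale. Drd3 had 0 counts in pup 1, where Drd2 was 64.5-fold above a floor of 3 counts per library, and the exact 95% interval began at 52.0. In pup 3 it had 1 count, a ratio of 241 per length (exact 95% interval 42.9 to 9570, for counting error only). Drd4 and Drd5 were at 1.31 to 1.65 and 1.70 to 1.95 TPM.

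Ret, the signalling receptor for GDNF family ligands (ENSMUSG00000030110.9, chr6:118151745-118197718, minus strand), was at 4.98 TPM in pup 1 and 4.04 TPM in pup 3 on 798 and 724 counts, with intervals apart (4.49 to 5.21 and 3.67 to 4.26 TPM). The co-receptor genes Gfra1, Gfra2 and Gfra4 were higher than Ret, Gfra4 the highest of them in both pups, and Gfra3 was lower. Gfra1, which binds GDNF, was at 30.8 and 29.3 TPM, above Ret (log2 ratio of Ret over Gfra1 -2.72 ± 0.160), and Gfra2, which binds neurturin, was at 22.2 and 23.3 TPM. The ligand gene Gdnf was at 0.13 and 0.06 TPM on 10 and 5 counts, and Nrtn, the neurturin gene, at 6.79 and 6.34 TPM. Of the 8 genes of this family besides Ret, 4 reached 1 TPM in each pup, and 1 had intervals apart, Gfra3, at 0.09 and 0.36 TPM, higher in pup 3 on 4 and 17 counts.

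Ret was read from transcripts that end in different coding exons. The transcript of 1073 codons held 75.9% of the gene's TPM in pup 1 and 88.0% in pup 3 (82.0% ± 8.58), and the one of 1115 codons 24.1% and 12.0% (18.0% ± 8.58). In TPM the 1073-codon transcript was at 3.78 and 3.56, whereas the 1115-codon transcript was at 1.2 and 0.48 on 165.47 and 72.84 estimated counts, so the lower level of Ret in pup 3 lay mostly in the longer form. The models share their first 1063 codons, and their coding ends from the first codon that differs are shown because these letters decide which receptor tail is made. The stop codon is in capitals, and the stretches lie at chr6:118155256-118155288 and, with an intron, chr6:118153853-118155288 on the minus strand (GENCODE M21).
1073-codon end: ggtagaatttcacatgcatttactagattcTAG
1115-codon end: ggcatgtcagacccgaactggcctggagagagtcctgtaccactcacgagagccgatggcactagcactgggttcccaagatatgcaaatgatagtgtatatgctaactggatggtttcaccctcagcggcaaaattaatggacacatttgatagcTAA
The shorter form adds 10 codons of its own and the longer form 52. The transcripts also differ in annotated start and in length, and the length of each in the deposited table is not that of the M21 model.

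Nr4a2 had 3 transcripts at a mean of 5 percent or more. The full-length form of 598 codons held 62.1% and 68.3% (65.2% ± 4.38), and a form of 535 codons with a start further inside the gene held 24.0% and 18.6% (21.3% ± 3.85). A transcript annotated for nonsense-mediated decay, from the far upstream start at 57124003, held 6.55% and 6.05% (6.3% ± 0.354). Most of the Nr4a2 level, 69.0% ± 4.98, was thus assigned to transcripts that start at 57115038, and the higher TPM of pup 3 lay in the 598-codon form (8.16 and 11.3 TPM) and not in the 535-codon form (3.16 and 3.07 TPM).

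Ddc was read mainly from 1 of its 10 annotated transcripts, a form of 480 codons at 91.1% and 90.2% (90.7% ± 0.629). Transcripts that start between 11890369 and 11890408 held all of that share, and those that start between 11898044 and 11898144 were listed at 0 in both pups. By the deposited posterior means the upstream starts held 8.62% and 9.73%, against 77.8% and 77% for the starts between 11890369 and 11890408. The 150 bases before each start are shown because the TPM was assigned to the first and not to the other, at chr11:11890409-11890558 and chr11:11898145-11898294 (minus strand, GRCm38.p6). Capitals mark the NR4A element, read here on the opposite strand.
Ddc, start at 11890408: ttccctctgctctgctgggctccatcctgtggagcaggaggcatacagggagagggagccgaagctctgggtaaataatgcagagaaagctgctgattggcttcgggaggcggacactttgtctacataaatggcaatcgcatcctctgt
Ddc, start at 11898144: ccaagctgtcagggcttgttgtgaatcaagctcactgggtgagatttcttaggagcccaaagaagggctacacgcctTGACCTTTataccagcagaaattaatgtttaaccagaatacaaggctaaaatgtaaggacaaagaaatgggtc
The remaining 2 transcripts with a share, both noncoding, held 5.02% ± 0.389 and 4.32% ± 0.233. Th and Pitx3 were read from 1 transcript each (100%) although the table holds 6 and 3, and the other 5 genes have 1 transcript in the table. By posterior means that transcript held 94.3% for Th and 75.0% for Pitx3. A single Drd2 transcript, of 444 codons, was in the table, so the long and short forms of the receptor were not separated here. Its codons were read from the M21 model of 2547 bases, whereas its deposited length, on which the Drd2 TPM rests, was 1549 bases.

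**Figure D3:**
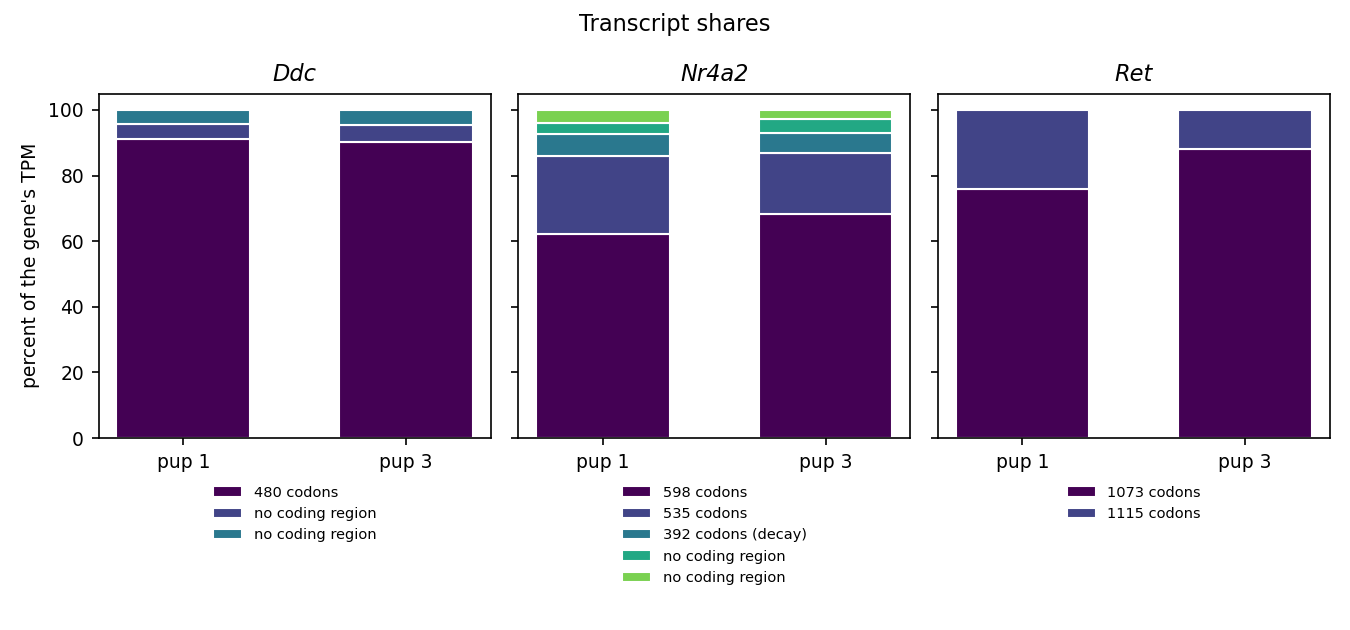
Percent of each gene's TPM assigned to its transcripts (stacked bars) in pup 1 and pup 3 for Ddc, Nr4a2 and Ret, named by coding length. The 1115-codon form of Ret is at 24.1% of TPM in pup 1 and 12.0% in pup 3, and the 480-codon form of Ddc at 91.1% and 90.2%.

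Between the pups, 7 of the 10 genes were lower and 3 higher in pup 3. For this comparison, 13254 genes had a mean expected count of 100 or more, including 9 of the 10. On log2 of TPM + 0.1, 0 of the 9 passed a difference of 1, against 0.302% of all genes (40). By intervals apart, 5 of the 9, Th, Slc6a3, Aldh1a1, Gch1 and Ret, were lower in pup 3, against 7.52% of all genes (997). None of the 9 was higher in pup 3 by that rule, against 12.8% of all genes (1701). The median log2 difference, pup 3 minus pup 1, was -0.30 over the 9 genes and 0.02 over all genes, and the median size was 0.33 and 0.11.

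Slc6a3 had the largest difference, -0.76 on the log2 scale, and 0.8% of all genes had a larger one in size. Aldh1a1 was at -0.51 (3.0% larger) and Th at -0.42 (5.22% larger), followed by Gch1 at -0.38 and Ret at -0.30. Counts at equal depth gave -0.78 for Slc6a3, with an exact 95% interval of -0.89 to -0.66 that covers counting error only. Slc18a2 (-0.01) and Ddc (-0.03) lay at 0 within counting error, as did Drd2 (0.19) and Pitx3 (0.12). Nr4a2, at 0.33, was the exception on the other side: its count ratio of 0.36 had an interval of 0.23 to 0.48. With 1 library a pup these differences have no replicate check.

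**Figure D4:**
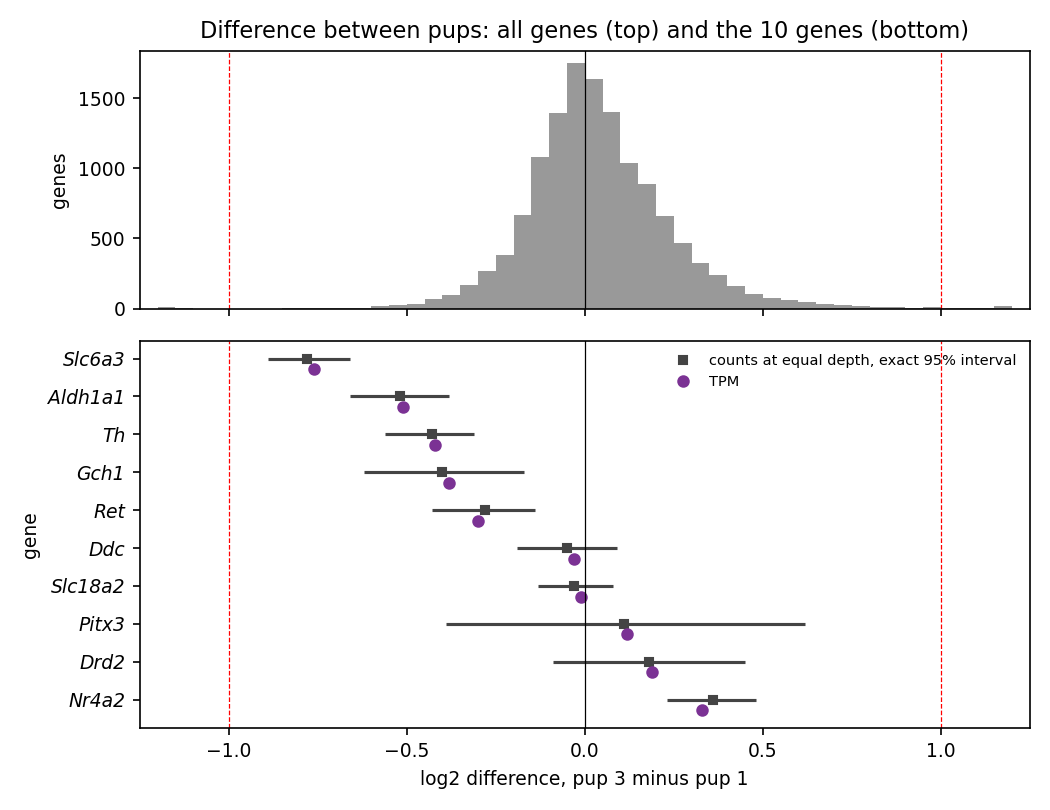
Log2 difference between pups, pup 3 minus pup 1, for 13254 genes (top, histogram of TPM + 0.1, with values past the axis in the end bins) and for the 10 genes (bottom). Circles are TPM, squares counts at equal depth with exact 95% intervals, and dashed lines mark 1; Slc6a3 (-0.76), Aldh1a1 (-0.51) and Th (-0.42) lie furthest to the left and Nr4a2 (0.33) to the right.

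Other cell types that use these genes, and other tissue in the dissection, also differed between the libraries. All 12 hypothalamic markers were higher in pup 3, 10 with intervals apart and 6 past 1, and their summed level was 191 TPM in pup 1 and 414 TPM in pup 3. Avp, the vasopressin gene, made up most of that sum, at 124 and 270 TPM. Th, which hypothalamic neurons also use, was lower in pup 3, but whole tissue does not show how much of it those neurons held. Of 5 astrocyte markers, 4 were lower in pup 3 with intervals apart and Slc1a3 was at 123 and 125 TPM. Their sums were 523 and 429 TPM, and vascular and meningeal markers summed to 336 and 307 TPM, 6 of 6 lower and 2 with intervals apart. Sex-linked genes differed too: Ddx3y, on the Y chromosome, was read 2618 times in pup 1 and 0 times in pup 3, and Xist had counts of 2.26 and 10434. By these genes pup 1 was male and pup 3 female, so sex and pup cannot be told apart in any difference here. The part of other cells, other tissue and sex in the differences of the dopamine genes was not tested.

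Markers of the other monoamine neurons were lower in pup 3 as well, without intervals apart. The 4 serotonergic markers summed to 23.2 and 20.2 TPM. The 5 noradrenergic markers summed to 4.06 and 3.47 TPM, mostly Pnmt, the adrenaline-forming enzyme, at 3.28 and 2.89 TPM, while the defining factor Phox2a had 1 and 4 counts. Of the cells that use Drd2, striatal markers summed to 25.7 and 28.7 TPM, with 1 of 5 apart (Rgs9, higher in pup 3). Pituitary markers summed to 7.03 and 8.47 TPM, mostly Pomc, which is also on the hypothalamic list, at 6.62 and 8.07 TPM. Prl and Pou1f1 had 0 counts in both pups. Of the cells that use Ret, motor neuron markers summed to 18.0 and 27.2 TPM, with Mnx1 at 0 counts in both. The higher sum of pup 3 was that of Isl1, which hypothalamic neurons also use, at 11.2 and 21.9 TPM. Slc18a3, the vesicular acetylcholine transporter, was lower in pup 3 with intervals apart, at 4.67 and 3.35 TPM.

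**Figure D5:**
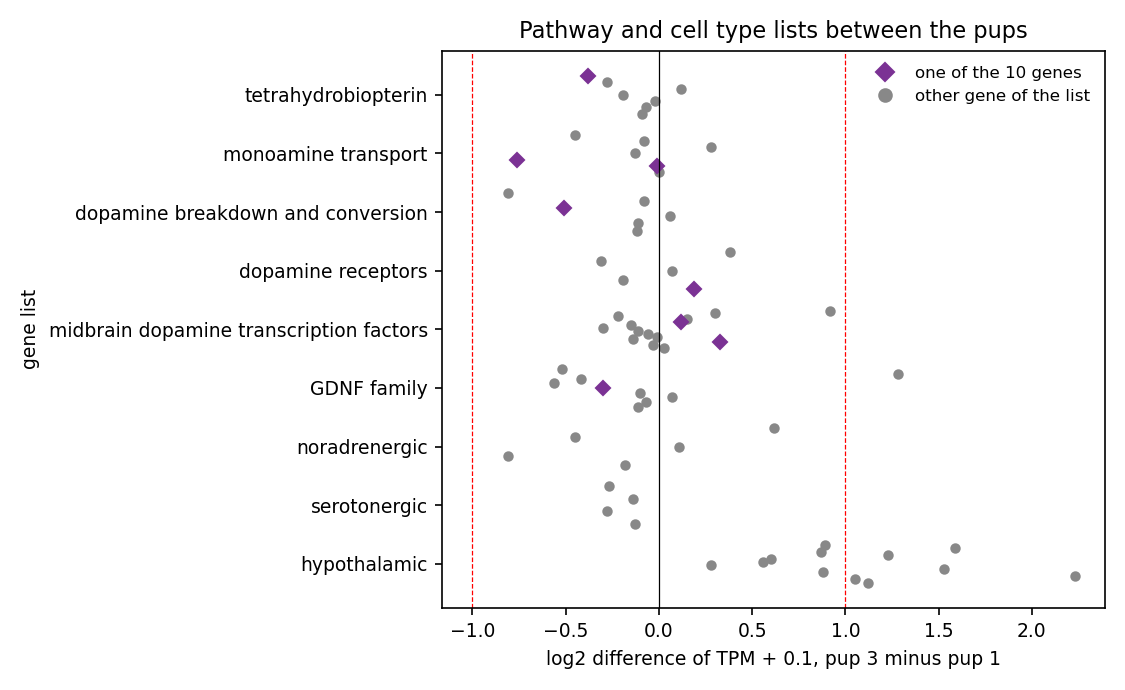
Log2 difference of TPM + 0.1, pup 3 minus pup 1, for each gene of 9 lists, with the dopamine genes as diamonds and the other genes as circles; dashed lines mark 1. All 12 hypothalamic genes lie to the right of 0 and all 4 serotonergic genes to the left.

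Of 12 markers of dopamine neuron subtypes, 11 reached 1 TPM in each pup. Slc17a6, the vesicular glutamate transporter that some of these neurons also use, was at 126 and 123 TPM, above Th by a log2 ratio of 2.27 ± 0.274. Excitatory neurons across the midbrain also express it, and whole tissue does not show which cells the other markers were read from. Calb1, of dorsal tier neurons, was at 28.4 and 34.1 TPM and Vip, of a small caudal group, at 0.76 and 1.55 TPM, and both had intervals apart, higher in pup 3. Sox6, of ventral tier neurons, was at 7.94 and 7.87 TPM. Its intervals overlapped between the pups, whereas those of Aldh1a1, the other ventral tier gene here, did not. Gad2, an enzyme of GABA neurons, was at 35.9 and 43.6 TPM and was not apart from Th (log2 ratio 0.62 ± 0.493).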

How the data were processed

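The authors deposited a gene and a transcript table for each of 2 libraries, made with build mm10 and GENCODE M4 per the accompanying text record. Neither the program nor the use of strand in counting is given in the sources used here, so reads of a gene and its antisense partner cannot be told apart. Expected counts, as deposited by the authors, estimate the reads assigned to a gene. The authors' deposited TPM values divide these by effective length and scale them over all rows. The bounds of the TPM credibility interval, a deposited signal of unstated level, describe the posterior mean and need not hold the TPM itself. The deposited percent of each transcript is its share of the gene's TPM. Effective lengths were deposited as well and used for ratios per length.

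Symbols and coordinates came from GENCODE M21 (same build) by gene identifier without version, and promoters from RefSeq. The members, lists and pairs were chosen with earlier results of these data known. All 10 members are named, and from each list at most 4 other genes with values. Ddx3y, Xist and genes named for a small count were added after their values were seen. With 2 libraries of 1 group, no gene could be named for a pattern like another's. Pups are separate animals per the labels. Over 2 pups the smallest p of an exact sign-flip test, two-sided, is 0.5, so no test was made. Differences used log2 of TPM + 0.1, which understates low genes, and a minimum mean count of 100. Intervals on counts are exact binomial at 95% and, like the floor of 3 counts, cover counting error only. edgeR 4.0.16 and DESeq2 1.42.0 (R 4.3.3) gave scaling factors from counts rounded to whole numbers, for alternatives alone. Python 3.11.15, numpy 2.4.6, pandas 2.3.3, SciPy 1.17.1 and matplotlib 3.10.9 did the rest. On simulated counts, with a spread taken from these 2 pups, the median log2 difference was checked against the planted one. The rule of intervals apart was not simulated. Alternatives were pseudocount, filter, scaling, posterior means, division by length, the TPM minimum and each pup alone. Some genes of the fixed lists and pairs enter the counts and sums and are not reported here by name.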

Additional observations from a re-analysis of the deposited data

How the results depend on the processing

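Among all genes, 40 passed a log2 difference of 1 between the pups. That number was 26 with a pseudocount of 1, 368 with a mean count of 10 or more and 2291 with no filter, and TMM and DESeq2 size factors gave 34 and 35. With TMM, DESeq2 size factors or a pseudocount of 1, 0 of the 10 genes passed 1, and the signs of all 10 differences were kept with these and with posterior means. The median of the 10 genes ran from 13.5 to 14.8 TPM with each pup alone. A minimum of 5 TPM in each pup kept 7 of the 10 genes. Posterior means gave 2.83 TPM for Pitx3, 20.7 for Ddc and 16.1 for Slc18a2. The leading transcript shares became 75.0% for Pitx3, 73.5% for Ddc, 94.3% for Th and 60.1% for Nr4a2. The number of gene pairs apart was 16 with a pseudocount of 1 and with posterior means, but the ratio itself moved by more than 1 SD in 13 of 24 pairs, in 5 and, for counts not divided by length, in 17. With a pseudocount of 1 and with posterior means, Th over Dbh was 4.39 and 5.11, Slc6a3 over Slc6a2 3.87 and 5.77, and Slc18a2 over Slc18a1 3.43 and 4.07. Counts not divided by length gave -0.26 for Th over Slc6a3, which was not apart. The causes were not tested. No paired analysis was possible because there was 1 group, with no second group to share replicate numbers. Depth limits Pitx3 most, with 63 and 75 counts.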
